A study of Homo sapiens with 12 samples.

Results

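The mitochondrial ribosomal protein genes of the series were followed across 4 groups of a human mammary epithelial line. They were taken as the genes whose platform symbol is MRPL or MRPS followed by a number, with each gene read by its brightest probe that was detected (detection p under 0.05) on at least 3 arrays. This gave 76 genes of 11205 named genes tested, of which 48 carry large subunit symbols and 28 small subunit symbols. All 76 passed the detection filter, and 74 were detected on all 12 arrays. MRPL4 was detected on 11 arrays, missing on 1 of the 3 Cas/ErbB2 arrays. MRPS14 was detected on 7 arrays, namely all 3 control arrays, 2 ErbB2 arrays, 1 Cas array and 1 Cas/ErbB2 array. The members sit on 110 platform probes, 104 of which passed the filter, and 23 members have more than 1 such probe.

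The study used MCF10A, mammary epithelial cells of human origin that form no tumours, in 4 groups of 3 Illumina bead arrays each. These are labelled ErbB2 (a receptor tyrosine kinase), Cas (the adaptor protein p130Cas), Cas/ErbB2 for both, and Ctr MCF10A.B2, called control here. The array names read M+, C-, C+ and M- in that order, the labels do not say what MCF10A.B2 cells carry, how the genes were introduced or whether the arrays come from separate cultures, and all groups are the same line. The p-values therefore measure the spread between these arrays, which may be technical, and 3 arrays a group limit the precision of every value.

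Mitochondrial ribosomes translate the few membrane proteins of the respiratory chain that mitochondrial DNA encodes. Their RNAs are encoded in the mitochondrion, but all of their proteins are encoded in the nucleus, made in the cytosol and imported. Some of these proteins descend from bacterial ribosomal proteins, and others have no bacterial counterpart and lie mostly on the outer faces of the particle. In the large subunit the stalk proteins recruit translation factors, other proteins line the exit tunnel, and the central protuberance contacts the transfer RNAs. The small subunit holds the messenger RNA and the decoding site.

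Facts of the arrays that touch every comparison against control were these. Control arrays were dimmer before normalization, with raw medians from 170.9 to 202.4, where the other 9 arrays had medians from 477.5 to 622.8. They nevertheless had more detected probes, between 19076 and 19416, while between 12864 and 15984 passed elsewhere. Control arrays carry a hybridization number in their names and the others carry none, so hybridization and the difference between control and the other groups cannot be told apart. Within the other 9 arrays Cas/ErbB2 replicate 3 stood apart, with the highest mean raw signal (2094.5) and the most probes detected (15984). KRT5, KRT14, CDH1, EPCAM and ITGB4, markers of mammary epithelium, were detected on all 12 arrays, while KRT17 and TP63 had no probe under those symbols. Of the markers of other cells, PTPRC and COL3A1 were detected on 0 arrays, COL1A1 on 11 and PECAM1 on 12.

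The promoters of 6 members are printed because the largest or steadiest differences fell on these genes and because MRPS11 and MRPL46 share a promoter region. They come from RefSeq (GRCh38.p14) and run 5′ to 3′ on the strand of the gene. For MRPS11 the 250 bases before the start site are shown, and for the others 150 bases before it and 30 after. Capitals mark matches, on either strand, to AAGATGGC (the YY1 word) or CCGGAAGT (a word of the ETS family, which reads ACTTCCGG on the other strand).
MRPS11 (chr15:88467458-88467707, plus strand): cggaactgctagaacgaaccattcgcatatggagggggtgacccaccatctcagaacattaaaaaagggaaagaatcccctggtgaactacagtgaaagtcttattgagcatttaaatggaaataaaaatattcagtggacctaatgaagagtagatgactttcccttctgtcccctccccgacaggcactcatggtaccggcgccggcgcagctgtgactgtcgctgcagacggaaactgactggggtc
MRPL46 (chr15:88467359-88467538, minus strand): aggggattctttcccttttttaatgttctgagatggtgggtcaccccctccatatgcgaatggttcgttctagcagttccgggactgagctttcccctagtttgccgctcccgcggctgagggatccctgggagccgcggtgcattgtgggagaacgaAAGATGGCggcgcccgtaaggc
MRPL52 (chr14:22829737-22829916, plus strand): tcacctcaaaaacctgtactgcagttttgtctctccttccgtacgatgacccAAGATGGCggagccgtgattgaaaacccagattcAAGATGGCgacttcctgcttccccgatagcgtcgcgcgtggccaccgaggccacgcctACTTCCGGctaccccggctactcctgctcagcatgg
MRPS27 (chr5:72320211-72320390, minus strand): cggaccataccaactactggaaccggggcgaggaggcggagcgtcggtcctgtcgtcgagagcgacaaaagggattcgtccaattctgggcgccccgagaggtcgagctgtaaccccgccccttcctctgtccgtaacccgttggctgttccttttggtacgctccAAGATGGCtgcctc
MRPL33 (chr2:27771569-27771748, plus strand): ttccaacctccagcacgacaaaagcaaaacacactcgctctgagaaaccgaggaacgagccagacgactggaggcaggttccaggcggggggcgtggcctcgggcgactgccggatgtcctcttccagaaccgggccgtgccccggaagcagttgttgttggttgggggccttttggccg
MRPS6 (chr21:34073428-34073607, plus strand): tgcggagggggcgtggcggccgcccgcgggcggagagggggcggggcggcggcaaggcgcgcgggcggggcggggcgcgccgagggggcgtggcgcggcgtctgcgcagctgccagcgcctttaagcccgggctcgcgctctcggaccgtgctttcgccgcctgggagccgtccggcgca

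Of the 76 members, 68 had a promoter in the RefSeq table, spanning 250 bases before to 50 after the start. The YY1 word was found in 21 of them (30.9%), against 6.65% of the 9080 tested genes with a promoter and 3.52% of all 27305. Of its 22 distinct matches 16 began after the start site and 18 lay on the strand of the gene. The word holds the letters ATG, and whether matches after the start site overlap a start codon was not examined. In MRPL46 the word begins at position 9 after the start, in MRPS27 at position 17, and MRPL52 has a pair of matches 98 and 64 bases before the start. CCGGAAGT was found in 11 members (16.2%, against 9.92% of tested genes), CACGTG, the E-box bound by MYC among others, in 9 (13.2%, against 12.7%), and CGCATGCG, the core of the NRF1 motif, in 3 (4.41%, against 4.52%). Matches of different words did not overlap in the windows printed above. The promoters of MRPL33, MRPS6 and MRPS11 as printed hold none of the 4 words, which says only that these letters are not in these windows. Among members with a promoter, the YY1 word was in 7 of the 23 called lower in Cas/ErbB2 than in control and in 14 of the other 45.

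Cas/ErbB2 cells had the lowest values of this gene family. The mean of the Cas/ErbB2 arrays was the lowest of the 4 group means for 50 of 76 members (65.8%), against 31.0% of all 16171 items tested (named genes and unnamed probes) and 32.2% of the 8408 items detected on all arrays. It was the highest for 5 members. The median over the members of the log2 signal minus the control mean was -0.202, -0.264 and -0.207 on the 3 Cas/ErbB2 arrays. On the ErbB2 arrays it was 0.026, 0.035 and -0.076, on the Cas arrays 0.034, -0.077 and 0.0, and on the control arrays 0.132, -0.068 and -0.059. Each Cas/ErbB2 array thus lay below every other array. Because arrays read bulk RNA, fewer cells of a type and less RNA per cell cannot be told apart.

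**Figure D1:**
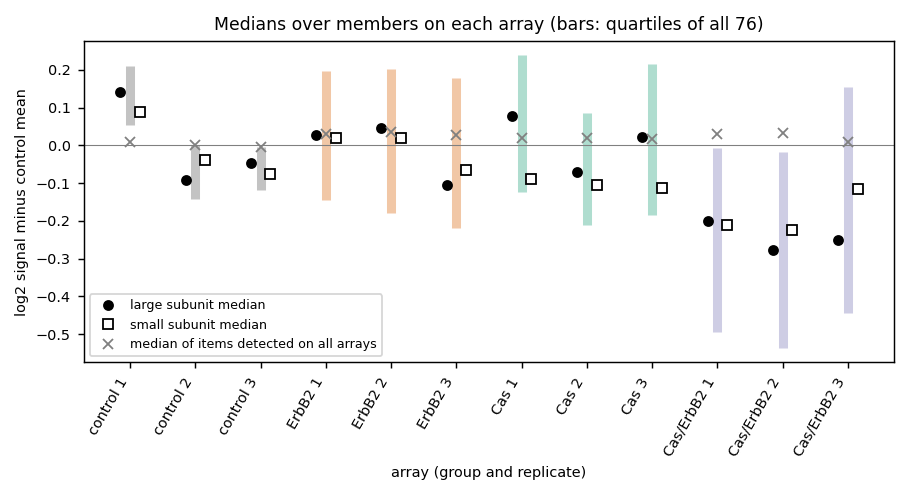
Median over large subunit members (circles) and small subunit members (squares) of the log2 signal minus the control mean, for each of the 12 arrays, with bars from the lower to the upper quartile of all 76 members. The crosses are the median of the 8408 items detected on all arrays, which stayed near 0, while the members' medians on the 3 Cas/ErbB2 arrays lay below 0 in both subunits.

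Against control, 25 members fell and 3 rose in Cas/ErbB2 cells, by limma with Benjamini-Hochberg adjustment over all 16171 items and calls at adjusted p under 0.05. The shares of all items called were 24.5% lower and 21.0% higher, so 32.9% of members lower stood beside 24.5% of all items, and 3.95% higher beside 21.0%. Among items detected on all 12 arrays 18.7% were called lower and 21.4% higher. The median change over the members was -0.21 on the log2 scale, beside -0.01 over all items. Most changes were small: of 59 called changes of members over all comparisons, 57 were under 1 on the log2 scale.

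**Figure D2:**
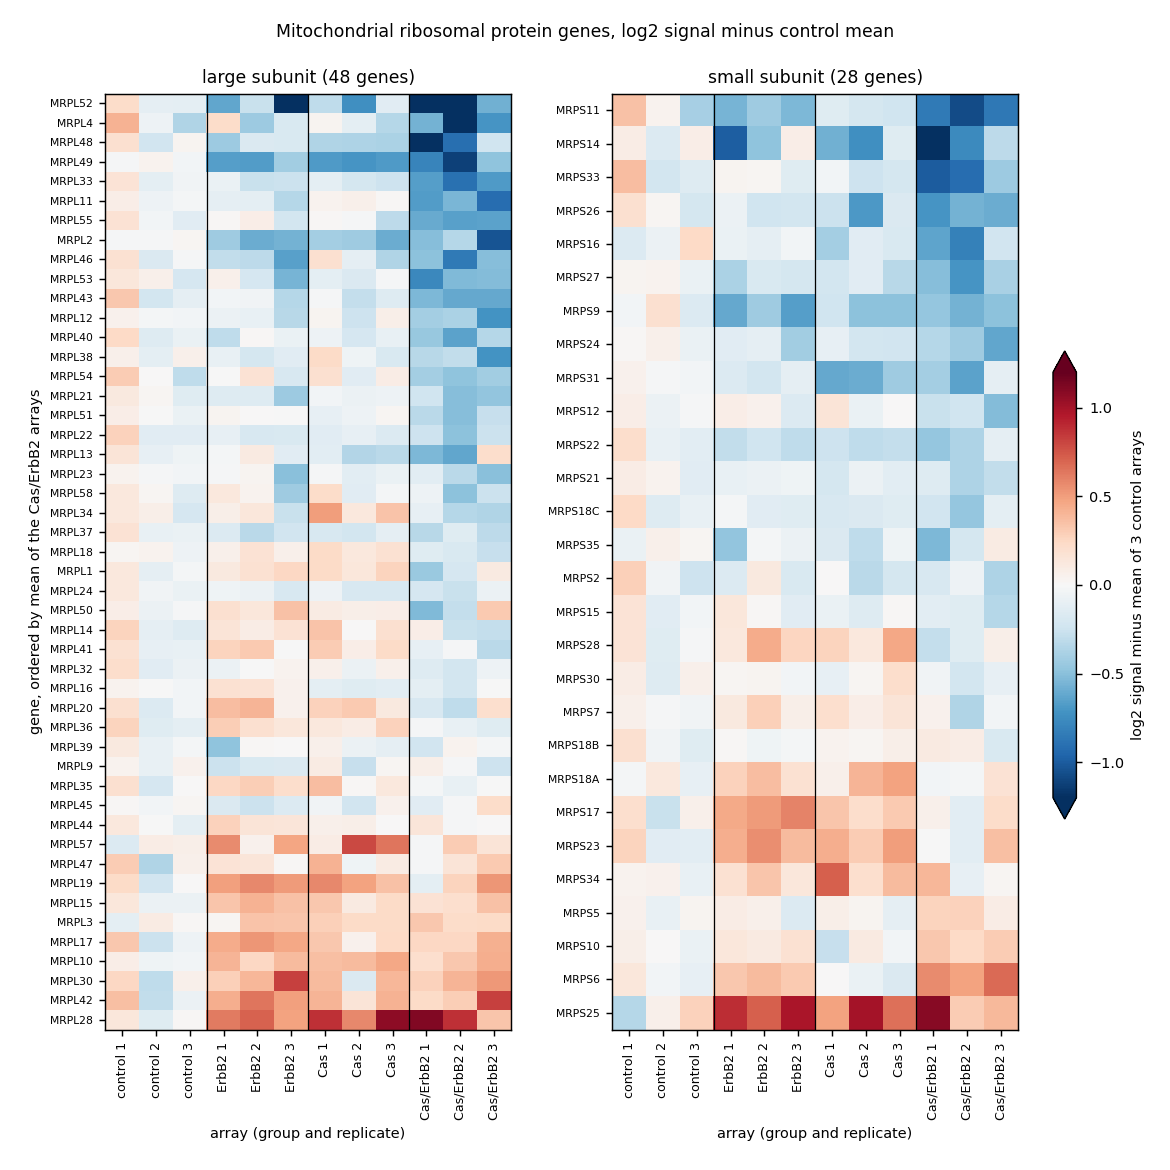
Log2 signal minus the mean of the 3 control arrays for each member (rows) on each array (columns), for the large subunit (48 genes) and the small subunit (28 genes). Colours stop at -1.2 and 1.2, and rows run from the lowest to the highest Cas/ErbB2 mean. Blue cells fill the upper rows of the Cas/ErbB2 columns in both panels, and the lowest rows (MRPL28, MRPS25) are red in all 3 groups other than control.

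Among the large subunit genes, MRPL52, whose protein has no bacterial counterpart, had the largest fall in Cas/ErbB2 cells. Its log2 signals were 10.26, 9.94 and 9.93 on control arrays and 8.33, 8.28 and 9.47 on Cas/ErbB2 arrays. All Cas/ErbB2 values lay below all control values, although replicate 3 lay 1 unit or more above the other replicates of its group. The change was -1.35 ± 0.33 (SE) on the log2 scale, a 2.55-fold lower signal (limma adjusted p = 0.00603, n = 3 a group), and errors of changes are SE throughout. ErbB2 arrays (9.42, 9.78 and 8.76) and Cas arrays (9.74, 9.31 and 9.91) lay below control too, but those changes did not pass the test.

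MRPL33, a small protein that bacteria share, was lower in Cas/ErbB2 cells than in each of the other groups. The values were 12.79, 12.55 and 12.77 in Cas/ErbB2, 13.61, 13.33 and 13.40 in control, 13.37, 13.18 and 13.19 in ErbB2, and 13.33, 13.24 and 13.20 in Cas. Every Cas/ErbB2 array was below every other array, and the other 3 groups lay close together. The change was -0.75 ± 0.13 against control (limma adjusted p = 0.000649, 1.68-fold), -0.55 ± 0.13 against ErbB2 (adjusted p = 0.0452) and -0.56 ± 0.13 against Cas (adjusted p = 0.0153). A further MRPL33 probe gave -0.53 against control (adjusted p = 0.0144), -0.34 against ErbB2 (adjusted p = 0.301) and -0.24 against Cas (adjusted p = 0.398), the latter pair not passing.

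MRPL55, a large subunit protein with a bacterial relative, had the same pattern. Its Cas/ErbB2 signals of 10.43, 10.38 and 10.39 lay within an SD of 0.02. Control arrays gave 11.20, 11.00 and 10.89, ErbB2 arrays 11.04, 11.11 and 10.81, and Cas arrays 11.04, 11.02 and 10.72. No array of another group came down to the Cas/ErbB2 values. The change was -0.63 ± 0.14 against control, -0.59 ± 0.14 against ErbB2 and -0.53 ± 0.14 against Cas (limma adjusted p = 0.00336, 0.0485 and 0.0311). A second MRPL55 probe detected on all arrays gave -0.30, 0.01 and -0.32, none passing the test. A dimmer probe of the gene, detected on 3 arrays, gave -0.73 against control (adjusted p = 0.00375), -0.05 against ErbB2 and 0.19 against Cas. The calls of MRPL33 and MRPL55 against ErbB2 were lost in 15 and 16 of 21 alternatives.

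The stalk, which binds the translation factors, was represented by MRPL10, MRPL11, MRPL12, MRPL53 and MRPL54. In Cas/ErbB2 cells against control 3 of these 5 fell and 1 rose, beside 24.5% of all items called lower and 21.0% called higher. MRPL12 had 11.55, 11.58 and 11.24 against control values of 12.01, 11.94 and 11.93, without overlap (-0.51 ± 0.14, limma adjusted p = 0.0127). MRPL53, a stalk-base protein without a bacterial counterpart, had 10.65, 10.89 and 10.90 against 11.56, 11.48 and 11.22 (-0.60 ± 0.17, adjusted p = 0.0117). MRPL10, the protein on which MRPL12 is anchored, went the other way, with 10.14, 10.26 and 10.38 against 10.02, 9.89 and 9.91 (0.32 ± 0.11, adjusted p = 0.0402). That last call was lost in 11 of 20 alternative settings, median scaling among them.

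MRPL11, at the base of the stalk, was low in the Cas/ErbB2 cells by its brightest probe. The values were 11.49, 11.61 and 11.24 in Cas/ErbB2, 12.24, 12.10 and 12.13 in control, 12.05, 12.04 and 11.81 in ErbB2 and 12.20, 12.22 and 12.17 in Cas. Cas/ErbB2 lay below all the other arrays, with a change of -0.72 ± 0.13 against control (limma adjusted p = 0.00105) and -0.75 ± 0.13 against Cas (adjusted p = 0.00291). The call against Cas held in all 21 alternatives. That against control was lost in 1 of 20, the mean of the probes of a gene (limma adjusted p = 0.527). A pair of dimmer MRPL11 probes disagreed against control, with 0.52 (adjusted p = 0.105) and -0.17 (adjusted p = 0.543), and were below 0 against Cas, with -0.43 and -0.59, neither passing. The probe at 0.52, detected on 12 arrays, was called higher than control in ErbB2 (0.72, limma adjusted p = 0.0439) and Cas (0.95, adjusted p = 0.0136).

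Of 5 tested genes of the central protuberance 4 fell in Cas/ErbB2 cells against control, beside 24.5% of all items called lower. MRPL18 was the gene not called, and those that fell were MRPL38, MRPL40, MRPL46 and MRPL48. The changes were -0.45, -0.48, -0.62 and -0.89. MRPL48 varied widely within the group, with a mean of 9.35 ± 0.65 (SD, n = 3) in Cas/ErbB2 against 10.43, 10.01 and 10.27 in control. Cas/ErbB2 replicates 1 and 2 were at 8.71 and 9.33, and replicate 3 was barely below the lowest control array. Around the exit tunnel, where the new protein chain leaves, 0 of the 5 genes MRPL22, MRPL23, MRPL24, MRPL45 and MRPL47 passed the test in any comparison by the probe used, 1 of them having an unadjusted p under 0.05 against control in Cas/ErbB2 cells. Their changes in Cas/ErbB2 against control ran from -0.33 to 0.15. These are values of the brightest probes, and a second MRPL22 probe detected on all arrays was called lower in that comparison (-0.63, limma adjusted p = 0.00843). Each role group has 5 tested genes, few to set beside a share of all items, and the difference between these role groups was not tested.

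Among small subunit genes MRPS11, a protein of the platform that bacteria share, had the largest fall. Its signals were 10.50, 10.27 and 10.49 in Cas/ErbB2, 11.20, 11.14 and 11.11 in Cas, 10.79, 10.92 and 10.81 in ErbB2, and 11.70, 11.39 and 10.95 in control. Cas/ErbB2 was below the other groups on every array, with control the most spread (SD 0.37). The change was -0.93 ± 0.17 against control (1.90-fold, limma adjusted p = 0.00108) and -0.73 ± 0.17 against Cas (adjusted p = 0.017). A second MRPS11 probe gave -0.26 against control (adjusted p = 0.161) and -0.68 against Cas (adjusted p = 0.0113).

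MRPS11 and MRPL46 are transcribed away from each other on chromosome 15, their start sites 320 bases apart. MRPL46 had 10.70, 10.34 and 10.68 in Cas/ErbB2 against 11.37, 11.02 and 11.18 in control (-0.62 ± 0.18, limma adjusted p = 0.0145), and both genes were below control on all 3 Cas/ErbB2 arrays. Such close divergent neighbours, within 1000 bases, were found for 25 of the 68 members with a promoter (36.8%), beside 28.7% of tested genes and 20.1% of all genes in the table.

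MRPS33, MRPS26 and MRPS27, small subunit proteins without bacterial counterparts, also fell in Cas/ErbB2 against control. MRPS33 had 11.26, 11.34 and 11.82 against 12.63, 12.04 and 12.10, which do not overlap (-0.78 ± 0.19, limma adjusted p = 0.0056). MRPS26 had 10.46, 10.60 and 10.57 against 11.36, 11.19 and 10.96 (-0.63 ± 0.16, adjusted p = 0.00727). MRPS27, a pentatricopeptide repeat protein of the small subunit, had 11.98, 11.78 and 12.10 against 12.52, 12.53 and 12.41 (-0.53 ± 0.13, adjusted p = 0.00509). All 3 calls held in every alternative run, with the Cas/ErbB2 arrays below all control arrays.

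MRPS6, a platform protein that bacteria share, was higher in both groups labelled with ErbB2. Its signals were 14.13, 14.05 and 14.25 in Cas/ErbB2 and 13.89, 13.95 and 13.88 in ErbB2, against 13.57, 13.49 and 13.39 in Cas and 13.70, 13.53 and 13.47 in control. The groups labelled with ErbB2 lay above both groups without it on every array, and Cas/ErbB2 above ErbB2. The change was 0.58 ± 0.12 in Cas/ErbB2 against control (1.49-fold, limma adjusted p = 0.00209), 0.66 ± 0.12 in Cas/ErbB2 against Cas (1.58-fold, adjusted p = 0.00324) and 0.34 ± 0.12 in ErbB2 against control (adjusted p = 0.0459). The first and second of these were called in every alternative, while the last was lost in 11 of 20. The SLC5A3 gene lies within the MRPS6 locus, and the part of the locus that the probe reads was not examined.

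**Figure D3:**
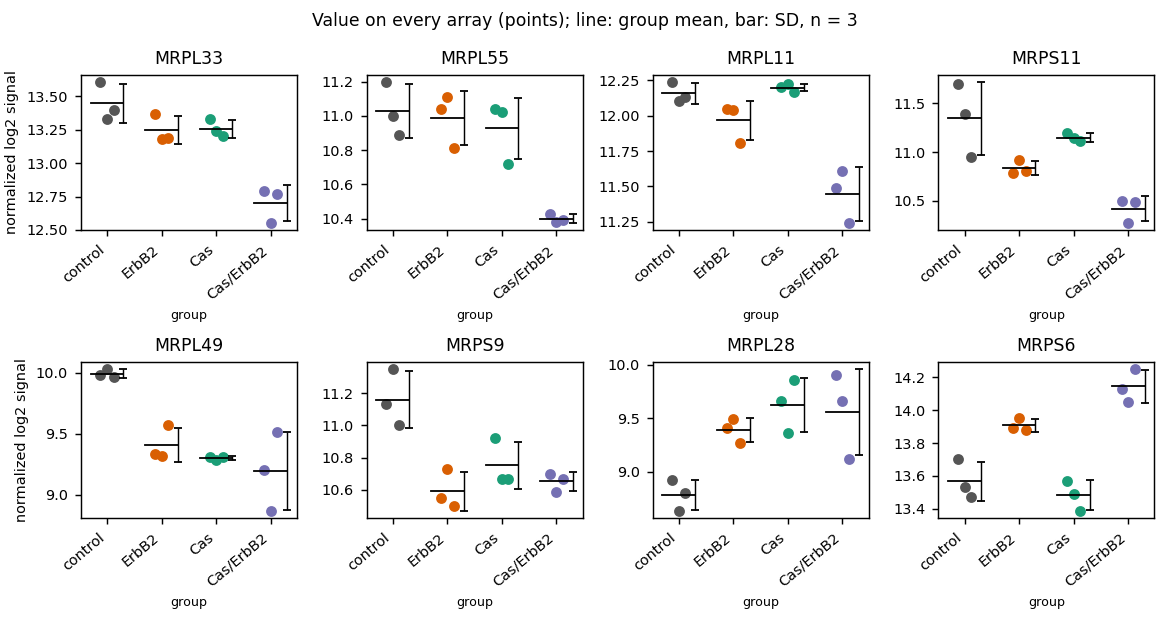
Normalized log2 signal of 8 members on every array (points) in the 4 groups, with the group mean (line) and SD (bar, n = 3); each panel has its own vertical scale. MRPL33, MRPL55, MRPL11 and MRPS11 are lowest in Cas/ErbB2, MRPL49 and MRPS9 are lower and MRPL28 higher than control in all 3 other groups, and MRPS6 is highest in Cas/ErbB2.

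Members without a bacterial counterpart gave 13 falls and 0 rises among 31 genes in Cas/ErbB2 against control, and members with one gave 12 falls and 3 rises among 45. The medians were -0.271 and -0.185. Of all items 24.5% were called lower and 21.0% higher in that comparison. By subunit symbol 16 of 48 large subunit genes and 9 of 28 small subunit genes fell, which are 33.3% and 32.1%, and the medians were -0.195 and -0.212. Placing MRPS18A and MRPS30 in the large subunit, where structures show them, gave 16 of 50 and 9 of 26. No test of large against small was made, since genes are not replicates.

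Without Cas/ErbB2 replicate 3 the count in Cas/ErbB2 against control was 30, with 50.6% of all items called in place of 45.5%. Under median scaling 19 members were called lower and 5 higher, with all items shifted upward to a median of 0.28 and 2518 lower calls among 9093 (main setting 3966 of 7355), and the members' median was -0.13, which is below that shift. The part of signal, detection and hybridization in these differences was not tested.

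Several probes of 1 gene did not always give 1 answer. In Cas/ErbB2 against control, 22 of 28 further probes of members had the sign of the probe used and 6 the opposite sign. Of 11 further probes beside a change called on the probe used, 6 were called in the same direction and 0 in the opposite direction, with p adjusted over all 19777 kept probes. The opposite signs, none of them called, were on probes of MRPL11, MRPL30, MRPL45, MRPL57, MRPS12 and MRPS18B. MRPL35, a large subunit protein, had a change of -0.04 by its brightest probe, but -1.26 (limma adjusted p = 0.00353) and -2.24 (adjusted p = 0.000208) by a pair of dimmer ones detected on 11 and 10 arrays. The MRPL35 pair was among 5 further probes called there whose gene was not called on the probe used. Of the others, those of MRPL22 (-0.63) and MRPS12 (-1.33, detected on 3 arrays) were lower. That of MRPL3, detected on 12 arrays, was higher (0.78, limma adjusted p = 0.045). The MRPL3 probe was also called higher than control in ErbB2 (0.87) and Cas (0.88). MRPL57, a large subunit protein, was called in no comparison by its brightest probe. A second MRPL57 probe, detected on 9 arrays, was called lower in Cas/ErbB2 than in ErbB2 (-0.72, adjusted p = 0.0159) and Cas (-0.81, adjusted p = 0.00181) and in the interaction (-1.33, adjusted p = 0.00045), and higher than control in ErbB2 (0.51) and Cas (0.61).

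ErbB2 cells showed 9 members higher and 4 lower than control. The shares were 11.8% and 5.26%, beside 14% of all items called higher and 16.7% called lower, so neither exceeded the background. The higher genes were MRPL10, MRPL15, MRPL17, MRPL19, MRPL28, MRPS6, MRPS17, MRPS23 and MRPS25, and the lower ones MRPL2, MRPL49, MRPS9 and MRPS11. Of 28 further probes 8 were called, in both directions, where the probe used was not. Only 1 stood beside a called change, that of MRPS11, and it was not called (limma adjusted p = 0.985). The MRPS11 call was lost in 11 of 20 alternatives. The median over the members was -0.02, beside 0.02 over all items. Under median scaling it became 0.06, beside 0.22 over all items.

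MRPS25, a small subunit protein without a bacterial counterpart, had the largest rise. It read 9.26, 9.09 and 9.35 in ErbB2 cells, 8.85, 9.37 and 9.03 in Cas cells and 8.03, 8.43 and 8.65 in control. Both groups lay above all control arrays, with changes of 0.87 ± 0.23 (1.82-fold, limma adjusted p = 0.0142) and 0.71 ± 0.23 (adjusted p = 0.0362). Cas/ErbB2 arrays, at 9.46, 8.67 and 8.76, were also above control, but that change of 0.59 ± 0.23 missed the threshold (adjusted p = 0.0524).

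These counts leaned on single arrays, and the share of all items called fell with them, from 30.6% to as low as 21.4% in ErbB2 against control and from 29.3% to as low as 20.0% in Cas against control. Without control replicate 2 the number called in ErbB2 against control was 2, without ErbB2 replicate 2 or 3 it was 3, without ErbB2 replicate 1 or control replicate 3 it was 5, and without Cas replicate 2 it was 8. In Cas against control the count was 4 without Cas replicate 2 and 3 without Cas replicate 3 or control replicate 2.

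Cas cells had 3 members higher than control (MRPL10, MRPL28 and MRPS25) and 4 lower (MRPL2, MRPL49, MRPS9 and MRPS31). These shares, 3.95% and 5.26%, stood beside 13.4% of all items called higher and 15.9% called lower. MRPS31, a small subunit protein without a bacterial counterpart, read 10.21, 10.23 and 10.40 in Cas and 10.88, 10.81 and 10.79 in control, without overlap (-0.54 ± 0.14, limma adjusted p = 0.014). The members' median was -0.05, beside 0.004 over all items. Under median scaling it became 0.03, beside 0.21 over all items.

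In all 3 comparisons against control, which share the control arrays, 3 members were called lower and 2 higher. The same was not counted over all items. MRPL49, a large subunit protein without a bacterial counterpart, was lower in all. It read 9.98, 10.03 and 9.96 in control, 9.33, 9.32 and 9.57 in ErbB2, 9.31, 9.28 and 9.31 in Cas, and 9.20, 8.87 and 9.51 in Cas/ErbB2. No array of the other groups reached the control values, and the changes were -0.59 ± 0.16, -0.69 ± 0.16 and -0.80 ± 0.16 (limma adjusted p = 0.0147, 0.00674 and 0.00169).

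MRPL2, a core protein next to the catalytic centre, and MRPS9, a protein of the head of the small subunit, were the other two lower in all 3. MRPL2 read 10.42, 10.42 and 10.46 in control, 10.01, 9.84 and 9.87 in ErbB2, 10.03, 10.01 and 9.84 in Cas, and 9.92, 10.09 and 9.40 in Cas/ErbB2. MRPS9 read 11.13, 11.35 and 11.00 in control, 10.55, 10.73 and 10.50 in ErbB2, 10.92, 10.67 and 10.67 in Cas, and 10.70, 10.59 and 10.67 in Cas/ErbB2. For both genes every control array was the higher one, and the changes ran from -0.41 to -0.63. In Cas against control the MRPL2 call (limma adjusted p = 0.0466) was lost in 11 of 20 alternatives and the MRPS9 call (adjusted p = 0.0376) in 5 of 20.

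MRPL28, a large subunit protein that bacteria share, was higher in all 3 comparisons. Its control arrays read 8.92, 8.64 and 8.80, its ErbB2 arrays 9.41, 9.49 and 9.27, its Cas arrays 9.66, 9.36 and 9.86, and its Cas/ErbB2 arrays 9.90, 9.66 and 9.12. All 9 other arrays exceeded the control arrays, with changes of 0.60 ± 0.20, 0.84 ± 0.20 and 0.78 ± 0.20 (limma adjusted p = 0.0372, 0.00796 and 0.00778). MRPL10 was the other gene higher in all 3, with changes of 0.35, 0.40 and 0.32, the first and last of which were lost in 13 and 11 of 20 alternatives. Over the 3 comparisons 34 members were called in at least 1, and 20 members were called lower in Cas/ErbB2 alone of the 3. Like counts over all items were not made, so whether these numbers differ from the background is not known. The shares of all items called were 30.6%, 29.3% and 45.5%. The number 20 is not a test of a difference between the groups, which is given next.

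The comparisons of Cas/ErbB2 with Cas and with ErbB2 use no control mean. Between Cas/ErbB2 and Cas 6 members were lower (MRPL11, MRPS11, MRPL34, MRPL33, MRPL55 and MRPL18) and 1 was higher (MRPS6). These are 7.89% and 1.32% of the members, beside 5.52% of all items called lower and 4.85% called higher. The median change was -0.25, beside -0.02 over all items, and 65 of 76 members (85.5%) lay below 0 against 52.6% of all items. MRPL34, a small protein that bacteria share, read 11.52, 11.28 and 11.26 in Cas/ErbB2 and 12.12, 11.75 and 11.96 in Cas, without overlap (-0.59 ± 0.16, limma adjusted p = 0.0357), a call lost in 9 of 21 alternatives. MRPL18, of the central protuberance, read 12.51, 12.48 and 12.38 against 12.89, 12.79 and 12.84 (-0.38 ± 0.11, adjusted p = 0.0408), a call lost in 18 of 21 alternatives.

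Between Cas/ErbB2 and ErbB2 MRPL33 and MRPL55 were called on the probes used, both lower. They are 2.63% of the members, beside 1.43% of all items called lower and 1.16% called higher. The median change was -0.24, beside -0.02 over all items, and 65 of 76 members (85.5%) lay below 0 against 52.9% of all items, with 25 members at an unadjusted p under 0.05. Leaving out Cas/ErbB2 replicate 3 raised the count to 12, while the share of all items called rose from 2.59% to 10.2%. Leaving out any other single array except control replicate 1 gave 0 members, with 0.946% to 1.94% of all items called. In a fit to the 9 arrays other than control 0 members were called against ErbB2 and 4 against Cas. For Cas/ErbB2 against Cas the count was 2 without Cas replicate 1 or Cas/ErbB2 replicate 2 and 4 without Cas replicate 2. The members' median in these comparisons, which share the Cas/ErbB2 arrays, was below 0 without any 1 array, from -0.28 to -0.20 against ErbB2 and from -0.27 to -0.20 against Cas.

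**Figure D4:**
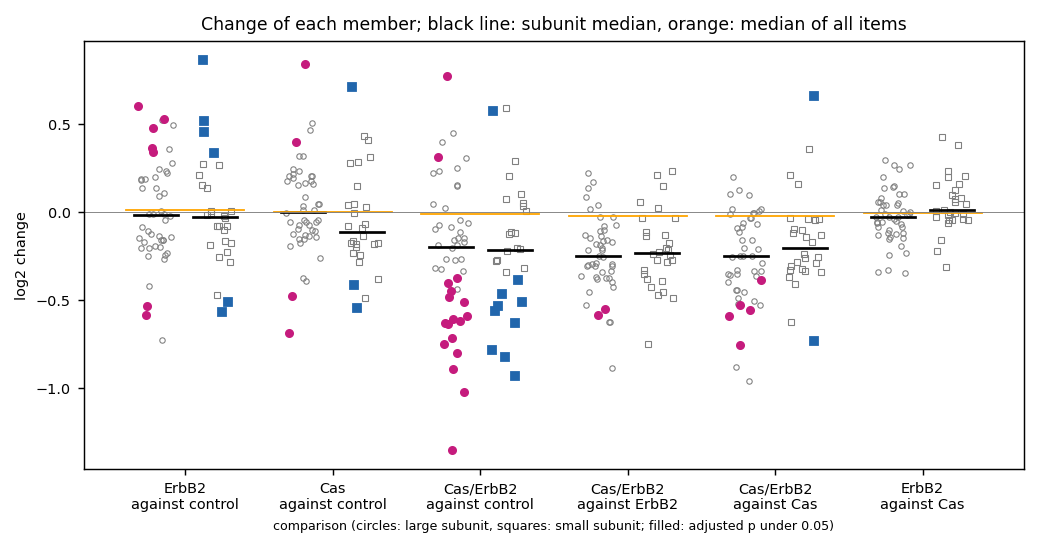
Log2 change of each member in 6 comparisons, with circles for the large subunit and squares for the small subunit; filled symbols had an adjusted p under 0.05 in limma. Black lines are subunit medians and orange lines the median of all items; in the 3 comparisons of Cas/ErbB2 both subunit medians lie near -0.2, below the orange lines.

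ErbB2 and Cas cells did not differ in any member past the threshold. In limma 0 members were called, beside 1.55% of all items called, 3 had an unadjusted p under 0.05, and the smallest adjusted p was 0.126. Individual changes ran from -0.34 to 0.43. On the authors' processed values 1 member was called.

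The interaction, the change from Cas to Cas/ErbB2 minus the change from control to ErbB2, was below 0 for MRPS17 and MRPS23 and was called in no member above 0. These are 2.63% of members, beside 5.36% of all items called lower and 9.17% called higher. MRPS17, a small subunit protein that bacteria share, read 11.77, 11.83 and 11.91 in ErbB2 and 11.52, 11.05 and 11.38 in control, but 11.38, 11.19 and 11.54 in Cas/ErbB2 and 11.65, 11.53 and 11.63 in Cas. It was thus higher in ErbB2 than in control on all arrays, whereas the Cas/ErbB2 mean (11.37) lay below the Cas mean (11.61), for an interaction of -0.76 ± 0.20 (limma adjusted p = 0.0281). MRPS23, a small subunit protein without a bacterial counterpart, read 10.55, 10.67 and 10.50 in ErbB2, 10.38, 9.98 and 9.99 in control, 10.11, 9.99 and 10.48 in Cas/ErbB2 and 10.55, 10.42 and 10.62 in Cas. Its order was the same, with an interaction of -0.79 ± 0.22 (adjusted p = 0.0353).

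The median interaction over the members was -0.24, beside -0.04 over all items, and was -0.30 for the large and -0.07 for the small subunit. The number called was 8 without Cas/ErbB2 replicate 3 (16.4% of all items called, beside 14.5% with it) and 5 without control replicate 1. It was 0 without ErbB2 replicate 2, Cas replicate 3, or control replicate 2 or 3, and 1 without ErbB2 replicate 1 or 3.

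Other genes of mitochondrial translation were counted from lists. Of the mitoribosome proteins with other symbols, DAP3, CHCHD1 and GADD45GIP1 were tested and 0 were called in limma in any comparison, with 0 at an unadjusted p under 0.05 against control in Cas/ErbB2 cells. Of 12 translation factors, 6 fell and 1 rose in Cas/ErbB2 against control. MTRF1, a release factor relative among the 6, was detected on the control arrays only. It passed the filter through those arrays alone, so its fall is not independent of the filter.

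MRRF, which splits ribosomes after termination, was called lower in Cas/ErbB2 against every other group and in both other groups against control. It read 11.46, 11.15 and 11.22 in control, 10.87, 10.78 and 10.73 in ErbB2, 10.87, 10.89 and 10.87 in Cas, and 10.08, 10.04 and 10.33 in Cas/ErbB2. The groups formed 3 levels, control above ErbB2 and Cas, and these above Cas/ErbB2, with no overlap between levels. The changes were -1.13 ± 0.13 against control (limma adjusted p = 3.09e-05), -0.64 ± 0.13 against ErbB2 (adjusted p = 0.0253) and -0.73 ± 0.13 against Cas (adjusted p = 0.00333).

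TACO1, an activator of the translation of the cytochrome oxidase subunit COX1, read 8.97, 9.15 and 9.36 in Cas/ErbB2 and 10.76, 10.18 and 10.22 in control (-1.22 ± 0.17, limma adjusted p = 0.000177). TUFM, the elongation factor that delivers transfer RNA, fell by 0.59 (adjusted p = 0.00427). GUF1, an elongation factor relative, rose by 0.68 ± 0.20 (adjusted p = 0.0175).

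Of 18 assembly factors tested, 7 fell (38.9%) and 3 rose (16.7%) in Cas/ErbB2 against control, beside 24.5% and 21.0% of all items. In Cas/ErbB2 against ErbB2 and against Cas 0 were called, beside 2.59% and 10.4% of all items. MRM3, a methyltransferase of the large ribosomal RNA, fell by 0.82 (limma adjusted p = 0.00226), while FASTKD2, an RNA-binding assembly protein, and MTERF3 rose by 0.60 (adjusted p = 0.0205) and 0.47 (adjusted p = 0.0151). Among the 7, MTG1 and MPV17L2 were detected on the control arrays only and MRM2 on these and 1 Cas/ErbB2 array. Without the control arrays none of these would have passed the filter, so their falls, counted in the 38.9%, are not independent of it. Of 12 genes for transcription and maintenance of mitochondrial DNA and RNA, 2 rose (16.7%) and 0 fell, beside the same shares of all items. The 2 were POLG and POLG2, subunits of the mitochondrial DNA polymerase. Of 6 regulators 16.7% rose and 33.3% fell. GABPB1, a subunit of an ETS family factor, rose by 0.58 (limma adjusted p = 0.00438), and ESRRA, a nuclear receptor, and PPARGC1B fell. PPARGC1B was detected on the control arrays only, so its fall is not independent of the filter either.

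Of all items 24.5% were called lower and 21.0% higher in Cas/ErbB2 against control. Cytosolic ribosomal protein genes gave 6 falls (8.33%) and 1 rise (1.39%) among 72, with a median of -0.04. Complex I subunit genes gave 21 falls (63.6%) and 1 rise (3.03%) among 33, with a median of -0.46. Against Cas the medians were -0.06 and -0.34, and against ErbB2 -0.07 and -0.26, beside -0.25 and -0.24 for the mitochondrial ribosomal genes. The differences between these gene families were not tested.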

How the data were processed

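Per the labels, RNA was extracted with trizol and hybridized to Illumina bead arrays, 3 for each of 4 groups. Per the file headers, the deposited table holds the bead intensity of each probe on each array, linear and not yet corrected or normalized, beside its detection p-value. A second table holds the authors' processed intensities, every array with a median of 439.6, and served as an alternative. Which software made them is not given in the sources.

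Signals were background-corrected from the detection p-values with limma 3.58.1 in R 4.3.3 (neqc, offset 16), put on the log2 scale and quantile normalized. A probe was kept when its detection p was under 0.05 on 3 or more arrays, and the brightest one stood for a gene, named by the platform table with symbols updated by gene ID. This left 16171 items, 11205 of them named genes. All 12 arrays entered 1 limma fit of the 4 group means with empirical Bayes moderation, with Benjamini-Hochberg adjustment over all items in each of 7 comparisons and calls at adjusted p under 0.05. The steps were tested on simulated data.

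The members and lists were chosen with earlier results of these data known. Named members are up to 6 of the largest called changes per direction and comparison, members called without control or in the interaction, members whose probes differ in sign, and members of the role groups. The bacterial counterparts and role groups come from textbook knowledge. Exact permutation of 3 against 3 arrays cannot go below p = 0.1, so no such p is given. Alternatives were another background offset, median scaling over probes detected on all arrays, the authors' processed values, other filters, probe means, the replicate number as a block, fewer groups in the fit, and each array left out. Figures were drawn with matplotlib 3.10.9 in Python 3.11.15.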

Additional observations from a re-analysis of the deposited data

Results flagged for a closer look

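The change that went with the ErbB2 label differed between groups labelled with and without Cas in 2 members, by the interaction term of the limma fit. These are 2.63% of the members, beside 5.36% of all items called lower and 9.17% called higher, so the share of members was below the background. For MRPS17 the interaction was -0.76 on the log2 scale (adjusted p = 0.0281), and for MRPS23 it was -0.79 (adjusted p = 0.0353). In both genes ErbB2 lay above control and Cas/ErbB2 had a lower mean than Cas. Leaving out single arrays ended the call of MRPS17 for 7 of the 12 arrays and that of MRPS23 for 9 of them. Both interactions use the control arrays, whose hybridization cannot be told apart from their group.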

How the results depend on the processing

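All 149 recomputed medians, those of the large minus small difference among them, moved by less than the largest SD between replicate arrays of any group. For the members' median that was the SD of the control arrays. Cas/ErbB2 arrays spread less, from -0.264 to -0.202, while the members' median in Cas/ErbB2 against control ran from -0.24 to -0.138 without 1 array. Of 59 called changes of members 20 kept their call in every setting, and of 1185 recomputed member results 260 lost it and 0 reversed. The share of all items called in each setting is given in brackets. For Cas/ErbB2 against ErbB2 (2 members, 2.59%) the count was 4 with normexp at offset 50 (2.99%), 5 with the authors' processed values (3.70%) and 5 of 74 with items detected on all 12 arrays (6.83%). It was 0 with median scaling (1.5%), no detection filter (0.643%), probe means (2.49%), only the 2 groups (0.136%) and the 9 arrays without control (0.977%). For Cas/ErbB2 against Cas (7 members, 10.4%) it was 3 with median scaling (7.46%), 13 with the authors' values (11.8%), 4 without a filter (3.46%), 18 of 74 with items detected on all arrays (20.3%), 3 with only the 2 groups (4.75%) and 4 with the 9 arrays (7.58%). For ErbB2 against Cas (0 members, 1.55%) the authors' values gave 1 (1.94%). For the interaction (2 members, 14.5%) median scaling gave 6 (29.5%), the authors' values 6 (12.7%), items detected on all arrays 5 (9.28%) and probe means 5 (16.2%). Where a filter changed, the number of items tested changed too; otherwise the cause was not tested.

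Leaving out 1 array gave 2 to 15 members called in ErbB2 against control, 3 to 9 in Cas against control, 20 to 30 in Cas/ErbB2 against control, 0 to 12 against ErbB2, 2 to 10 against Cas, 0 to 0 in ErbB2 against Cas and 0 to 8 in the interaction. With the replicate number as a block the counts were 10, 6, 30, 2, 7, 0 and 2. Same-numbered arrays had residual correlations from -0.077 to 0.179, with 6 of 18 pairs above 0.1. Arrays of different number and group had correlations from -0.222 to 0.09, so none of those reached 0.1. Whether the numbers pair the samples was not settled, and the main fit has no block. Signal over background limits MRPS14 and MRPL4, which some Cas/ErbB2 arrays did not detect.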

Other observations

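Of the divergent neighbours of members within 1000 bases, 17 pairs of genes had both genes tested. In Cas/ErbB2 against control 13 of the 17 pairs had changes of the same sign and 4 of opposite sign. Of the neighbours 11 were called lower and 1 higher, beside 24.5% and 21.0% of all items, and 72.4% of members lay below 0. With both sides mostly below 0, equal signs were to be met often, so the count does not measure a link within pairs. The following pairs were picked after their values were seen. MRPL49 fell by 0.80 on the log2 scale in Cas/ErbB2 against control, while FAU, a cytosolic ribosomal protein gene whose start lies 49 bases away, changed by -0.16 ± 0.12 (limma adjusted p = 0.282). MRPL57 changed by 0.15 and SKA3, a kinetochore gene 106 bases away, by -1.61 ± 0.17 (adjusted p = 2.06e-05). MRPL51 changed by -0.37 and NCAPD2, a condensin gene 840 bases away, by -1.92 ± 0.21 (adjusted p = 2.26e-05). MRPS27 and PTCD2, 133 bases apart, both fell, by 0.53 and 1.98.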
